A study of Homo sapiens with 3 samples.

Results

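MALAT1, NEAT1, KCNQ1OT1 and TUG1 are known as long noncoding RNAs of the nucleus. They were taken from the count table by their gene names, and all 4 were found among its 26485 genes. The counts came from 3 total RNA libraries of HEC1B, an established human endometrial cancer cell line, harvested at 48 h. The PRMT6 knockdown group held 2 libraries, made with different siRNAs labelled siPRMT6-1 and siPRMT6-2, and the control group held 1 library labelled siNC, whose genotype label was WT. PRMT6 is an arginine methyltransferase that modifies histones and other proteins. The comparison asked how the 4 RNAs differed after its knockdown. The 4 RNAs were chosen by name, with their counts in these libraries and their ratios to siNC known, so those values are a description and carry no test.

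MALAT1 accumulates in nuclear speckles, compartments rich in splicing factors, and NEAT1 is the scaffold on which paraspeckles, another kind of nuclear body, are built. KCNQ1OT1 is an imprinted, unspliced antisense RNA transcribed from within the KCNQ1 gene, and it is known for silencing neighbouring genes on the paternal chromosome. TUG1 is a spliced RNA that has been linked to Polycomb proteins. RefSeq lists TUG1 as protein coding, and MALAT1, NEAT1 and KCNQ1OT1 as long noncoding. MALAT1 and the long form of NEAT1 do not end in a conventional poly(A) tail: RNase P cuts off a tRNA-like RNA, and the new end is protected by a triple helix of U-rich stretches and an A-rich tract.

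NEAT1 lay at chr11:65422798-65445538 and MALAT1 at chr11:65497762-65506512, both on the plus strand of hg38, with 52223 bases between them. The gene models of the count table gave each of them a single exon block, of 22741 bases for NEAT1 and 8751 bases for MALAT1. The short and long forms of NEAT1 share their start and were counted as 1 gene. KCNQ1OT1 lay at chr11:2608328-2699998 on the minus strand, as a single exon of 91671 bases. TUG1 lay at chr22:30969211-30979394 on the plus strand, with 7666 exonic bases in 4 blocks.

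The 3′ ends of MALAT1 and NEAT1 are shown because they are the sequence feature that these neighbouring genes share. Each stretch below holds the last 110 bases before the tRNA-like RNA, from GENCODE 29 transcripts (GRCh38, plus strand), at chr11:65506007-65506116 for MALAT1 and chr11:65445431-65445540 for NEAT1. Capitals mark 2 U-rich motifs found in both, TTTCTTTT and GGTTTTGCTTTT, and the A-rich tract at the very end. The longer motif was cut from the longest run that the 2 stretches share, so its presence in both was fixed by that choice. T stands for U throughout.
MALAT1 3′ stretch: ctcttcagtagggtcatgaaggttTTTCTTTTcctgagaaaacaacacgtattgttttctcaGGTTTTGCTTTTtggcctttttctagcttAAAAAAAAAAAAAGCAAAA
NEAT1 3′ stretch: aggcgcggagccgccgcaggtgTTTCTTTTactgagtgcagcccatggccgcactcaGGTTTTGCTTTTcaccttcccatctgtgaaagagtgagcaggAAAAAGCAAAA

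The A-rich tract was 19 bases in MALAT1 and 11 bases in NEAT1, with 17 and 9 A. Both tracts ended in GCAAAA. Searched on the strand of the RNA, TTTCTTTT was in the last 110 bases of 1.38% of the 201525 GENCODE transcripts of at least that length. GGTTTTGCTTTT was in the last 110 bases of 6 transcripts (0.00298%), and 0.0963% of the transcripts ended in GCAAAA. The first 2 motifs stood together in the last 110 bases of 1 transcript, and the search did not record which. Since the longer motif was taken from these RNAs, its share is a description and no test. The annotated MALAT1 transcripts run on past the cut, so their last bases are other ones than those shown. Over a global alignment, the shown stretches were identical at 72 of 119 columns (60.5%).

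The tRNA-like RNAs cut from the ends are shown in lower case throughout. They are known as mascRNA (from MALAT1, chr11:65506117-65506173) and menRNA (from NEAT1, chr11:65445541-65445598).
mascRNA: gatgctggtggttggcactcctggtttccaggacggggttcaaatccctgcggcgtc
menRNA: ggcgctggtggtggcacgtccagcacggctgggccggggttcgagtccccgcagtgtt

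In both genes the tRNA-like RNA followed the shown stretch with no base between them. The 2 small RNAs were identical at 40 of 59 aligned columns (67.8%). The mascRNA lies inside the MALAT1 model of the count table, while the menRNA begins just past the end of the NEAT1 model.

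The libraries held 381628 counts in siPRMT6-1, 362080 in siPRMT6-2 and 410916 in siNC. Levels are given as CPM on library sizes scaled with TMM, a normalization that assumes most genes do not differ. At this depth 3 counts equalled 8.09, 9.09 and 7.78 CPM in the same order. PRMT6 itself had 4 counts in siPRMT6-1, 7 in siPRMT6-2 and 25 in siNC, with ratios to siNC of 0.167 (0.0421 to 0.482) and 0.327 (0.119 to 0.778). Of the epithelial markers, KRT8 had 681 counts in siPRMT6-1, 770 in siPRMT6-2 and 1329 in siNC, with ratios to siNC of 0.533 (0.486 to 0.585) and 0.677 (0.619 to 0.741). KRT18, which shares exon bases with KRT8 on the opposite strand, had 85, 95 and 129 counts, EPCAM had 4 to 5, and KRT19 and CDH1 were at 0. Of the endometrial markers, PAX8 had 117, 227 and 158 counts, with ratios of 0.771 (0.602 to 0.985) and 1.68 (1.36 to 2.07), and SOX17 and PGR were at 0. The 5 leukocyte markers summed to 19 counts in siPRMT6-1, 57 in siPRMT6-2 and 17 in siNC, nearly all from CD68, with PTPRC and CD3E at 0. The 5 fibroblast markers summed to 360, 372 and 531 counts, nearly all from COL1A1, with COL1A2, DCN and LUM at 0. The 4 endothelial markers summed to 18, 6 and 19 counts, with CDH5 and KDR at 0. The part of these markers in the values of the 4 RNAs was not tested. With bulk RNA, fewer cells with an RNA and less of it per cell cannot be told apart.

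The strand of a count is uncertain here. The kit was stranded, and genes named as antisense mostly had more counts than the genes they overlap: in 124 of 148 such pairs in each knockdown library and in 122 in siNC. In the count table, MALAT1, NEAT1 and TUG1 share no exon bases with an opposite-strand gene. KCNQ1OT1 shares 121 bases with exons of KCNQ1. RefSeq also places TALAM1, an antisense RNA, opposite MALAT1 at chr11:65499312-65507432 (GRCh38.p14), and it was not counted apart. Whether the counts of the 4 genes stand for the named RNA or for its opposite strand was not tested. Levels, ratios and ranks below are therefore those of the counts assigned to each gene name, whichever strand they came from.

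MALAT1 was higher with both siRNAs. It had 297 counts in siPRMT6-1 (264 to 333), 185 in siPRMT6-2 (159 to 214) and 148 in siNC (125 to 174), where brackets give 95% exact Poisson intervals. These were 801, 560.5 and 384 CPM in the same order. The 3 intervals on the CPM scale did not overlap, with the siPRMT6-1 library highest and siNC lowest. With siPRMT6-1 the level was 2.09 times that of siNC (1.71 to 2.56, an exact binomial interval). With siPRMT6-2 it was 1.46 times that of siNC (1.17 to 1.83). The siPRMT6-1 library had 1.43 times the level of the siPRMT6-2 library (1.19 to 1.73). These intervals cover counting error between single libraries, and with 1 library per siRNA the spread between cultures is unknown.

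NEAT1 was higher than siNC with siPRMT6-1, and close to siNC with siPRMT6-2. It had 159 counts in siPRMT6-1 (135 to 186), 72 in siPRMT6-2 (56.3 to 90.7) and 91 in siNC (73.3 to 112), or 429, 218 and 236 CPM. The siPRMT6-1 library stood above both others, whose intervals overlapped widely. Relative to siNC the level was 1.82 with siPRMT6-1 (1.40 to 2.38) and 0.925 with siPRMT6-2 (0.669 to 1.27). It was 1.97 times as high with siPRMT6-1 as with siPRMT6-2 (1.48 to 2.64). MIR612, a microRNA gene that lies 21661 bases into NEAT1 and thus only in its long form, had 2, 3 and 2 counts in siPRMT6-1, siPRMT6-2 and siNC. That is too few to set the long form apart.

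KCNQ1OT1 and TUG1 were counted too thinly to tell a ratio of 2 to siNC from a ratio of 1. KCNQ1OT1 had 21 counts in siPRMT6-1 (13 to 32.1), 13 in siPRMT6-2 (6.92 to 22.2) and 16 in siNC (9.15 to 26.0). Its ratio to siNC was 1.37 with siPRMT6-1 (0.679 to 2.80) and 0.95 with siPRMT6-2 (0.42 to 2.11). TUG1 had 21 counts in siPRMT6-1 (13 to 32.1), 20 in siPRMT6-2 (12.2 to 30.9) and 14 in siNC (7.65 to 23.5). Both knockdown values of TUG1 were nominally above siNC, with ratios of 1.56 with siPRMT6-1 (0.757 to 3.32) and 1.67 with siPRMT6-2 (0.802 to 3.57). For both genes the intervals of all 3 libraries overlapped. A ratio of 2 lay within the intervals to siNC for both genes and both siRNAs.

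**Figure D1:**
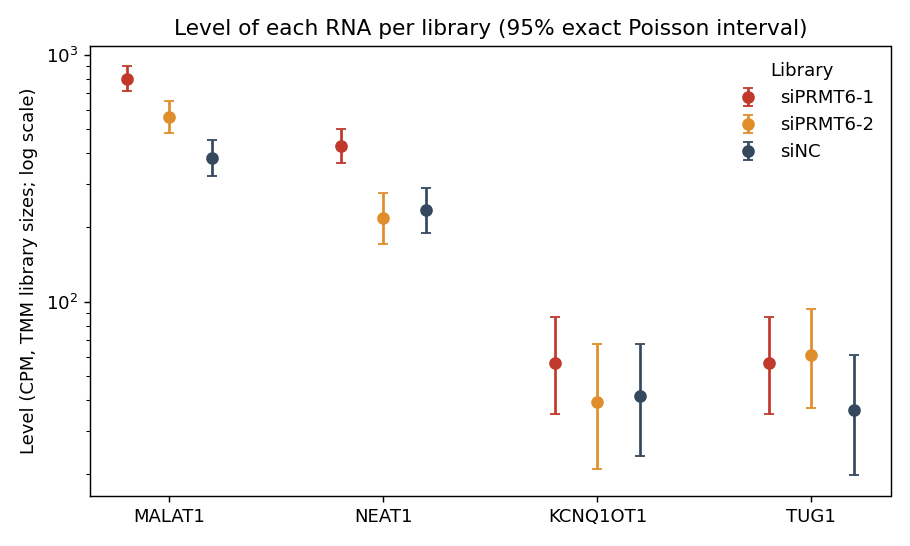
Level of MALAT1, NEAT1, KCNQ1OT1 and TUG1 in CPM on a log scale, with 1 point per library and bars for the 95% exact Poisson interval. MALAT1 stood at 801 CPM in siPRMT6-1, 560.5 in siPRMT6-2 and 384 in siNC with no overlap of the bars, NEAT1 stood apart in siPRMT6-1, and the bars of KCNQ1OT1 and TUG1 overlapped in all libraries.

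**Figure D2:**
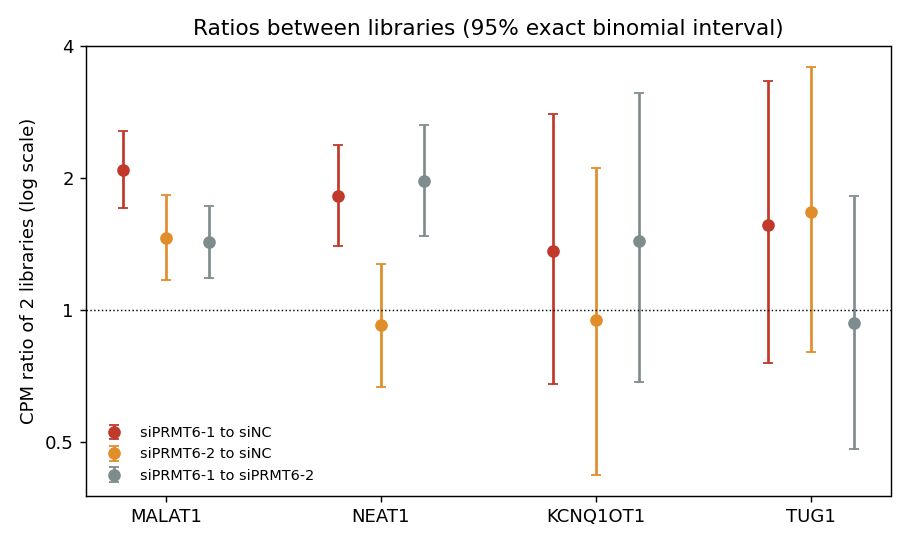
CPM ratios of 2 libraries for each RNA on a log scale, with bars for the 95% exact binomial interval and a dotted line at 1. The bars of MALAT1 lay above 1 in all 3 pairs, those of NEAT1 in both pairs with siPRMT6-1 on top, and those of KCNQ1OT1 and TUG1 crossed 1 in every pair.

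Per kilobase of exon, MALAT1 was the highest of the 4 RNAs in every library. Its level was 91.5 CPM per kb in siPRMT6-1, 64.1 in siPRMT6-2 and 43.8 in siNC. NEAT1 followed with 18.9, 9.59 and 10.4 CPM per kb, then TUG1 with 7.39, 7.90 and 4.73. KCNQ1OT1, whose model is the longest, had 0.618, 0.43 and 0.452 CPM per kb. MALAT1 made up 0.0778% of all counts in siPRMT6-1, 0.0511% in siPRMT6-2 and 0.036% in siNC. By count it ranked 154th, 256th and 411th in the table in the same order, and NEAT1 ranked 335th, 746th and 701st.

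The balance of MALAT1 to NEAT1 needs no normalization, since both counts come from the same library. There were 1.87 MALAT1 counts per NEAT1 count in siPRMT6-1 (1.54 to 2.28), 2.57 in siPRMT6-2 (1.95 to 3.42) and 1.63 in siNC (1.24 to 2.14). Per base of the models these were 4.85, 6.68 and 4.23. In siPRMT6-2 the balance was 1.58 times that of siNC (exact conditional interval 1.07 to 2.35). In siPRMT6-1 it was 1.15 times that of siNC, with an interval of 0.818 to 1.61 that holds 1. In siPRMT6-1 it was 0.727 times that of siPRMT6-2, and that interval of 0.512 to 1.03 holds 1 as well. Together the 4 RNAs had 498 counts in siPRMT6-1, 290 in siPRMT6-2 and 269 in siNC, and MALAT1 held 59.6%, 63.8% and 55.0% of them.

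The edgeR quasi-likelihood test, which set both knockdown libraries against siNC over 6803 genes, called 0 genes at an adjusted p under 0.05 (0.0%). Without adjustment 186 genes had a p under 0.05. DESeq2 called 0. The 4 RNAs are therefore set beside the ratios of all genes, as a description. Among the 1902 genes with at least 100 counts over the 3 libraries, which include MALAT1 and NEAT1, the interval of the ratio of siPRMT6-1 to siNC lay above 1 for 173 (9.1%). It did so for both MALAT1 and NEAT1. For siPRMT6-2 the interval to siNC lay above 1 for 223 of these genes (11.7%), MALAT1 among them. Between the siRNAs it lay above 1 for 366 (19.2%), with siPRMT6-1 over siPRMT6-2, and again for MALAT1 and NEAT1. From here on log2 ratios are of CPM with 2 counts added before scaling, which pulls low counts towards 0. A ratio of at least 1.5 to siNC was reached on that scale by MALAT1 and NEAT1 with siPRMT6-1, as by 14.7% of all genes tested. With siPRMT6-2 it was reached by TUG1, as by 17.9% of all genes tested. With both siRNAs it was reached by 401 genes (5.89%) and by none of the 4 RNAs.

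Counting noise depends on depth, so each RNA was also placed among genes with counts within a factor of 2 of its own. With siPRMT6-1, 2 of 438 such genes (0.457%) had a log2 ratio to siNC at or above the 1.05 of MALAT1. For NEAT1, at 0.85, it was 11 of 929 genes (1.18%). For TUG1 and KCNQ1OT1 these shares were 15.1% and 24.4%. With siPRMT6-2, 28 of the 438 genes (6.39%) were at or above the 0.54 of MALAT1, and 52.1% of the 929 were at or above the −0.11 of NEAT1. Over the 4 RNAs the median log2 ratio was 0.71 with siPRMT6-1 and 0.24 with siPRMT6-2, against 0.01 and 0.01 over all genes tested. The 4 RNAs were chosen with these ratios known, so their medians carry no test.

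**Figure D3:**
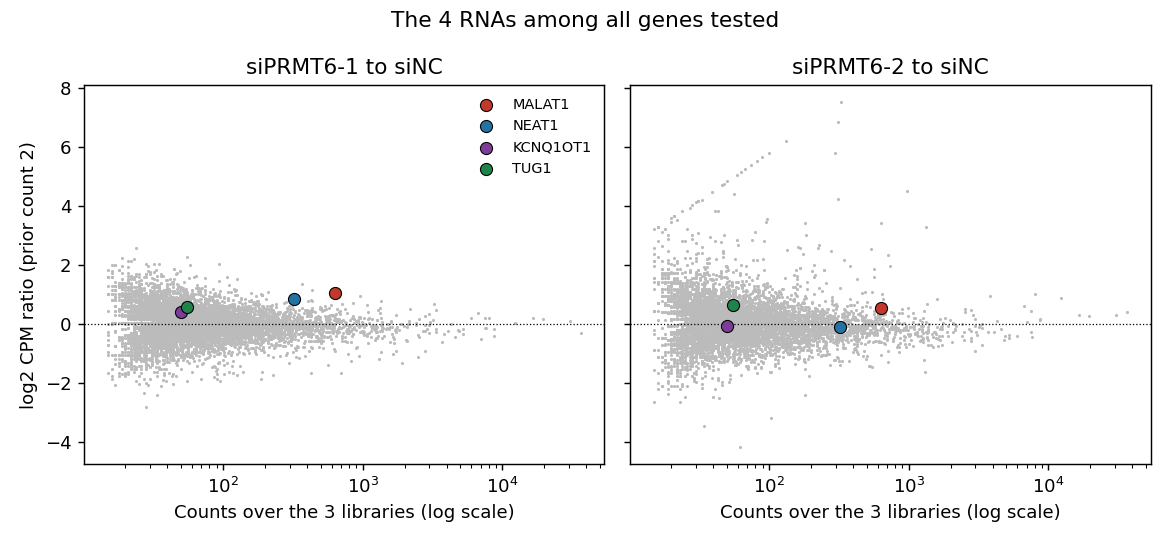
log2 CPM ratio to siNC (prior count 2) against counts over the 3 libraries on a log scale, with 1 grey point per gene tested and the 4 RNAs in colour, for siPRMT6-1 on the left and siPRMT6-2 on the right. With siPRMT6-1, MALAT1 at 1.05 and NEAT1 at 0.85 lay at the upper edge of genes of like count, while KCNQ1OT1 and TUG1 lay within the cloud.

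The genes with patterns most like each RNA were looked for among the 1902 well-counted genes, by the distance between their pairs of log2 ratios over these 3 libraries. Nearest to MALAT1 were TRIP12, a ubiquitin ligase gene, with 78 counts in siPRMT6-1, 53 in siPRMT6-2 and 41 in siNC (distance 0.107), PPP1R15B, with 59, 35 and 26 (0.144), and DPP9, with 58, 45 and 32 (0.228). Nearest to NEAT1 were PDCD4 (0.0429), the imprinted gene PEG10 (0.0605) and MPC2 (0.092). PEG10 had 71 counts in siPRMT6-1, 33 in siPRMT6-2 and 40 in siNC. Nearest to KCNQ1OT1 were LOC100133091, ANKH and MLX, and to TUG1 MRPL4, MAP1S and HBP1, at distances of 0.0113 to 0.0673. DPP9, PDCD4, MPC2, LOC100133091, ANKH, MLX and HBP1 overlap exons of a gene on the other strand. For KCNQ1OT1 and TUG1 the match rests on few counts of the RNA itself.

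Around NEAT1 and MALAT1 the neighbouring genes differed in direction among themselves. Of 13 other genes within 100 kb, 10 were tested. With siPRMT6-1, 4 of them had a ratio of at least 1.5 to siNC and 2 a ratio at least as far below 1, and with siPRMT6-2 these were 3 and 0. Over all genes tested, a ratio of at least 1.5 was reached by 14.7% with siPRMT6-1 and 17.9% with siPRMT6-2. The shares as far below 1 were 13.9% and 15.4%. FRMD8, upstream of NEAT1, had 66 counts in siPRMT6-1, 56 in siPRMT6-2 and 68 in siNC. LTBP3, downstream of MALAT1, had 258, 219 and 243 counts, with ratios of 1.10 and 1.05, and overlaps exons of a gene on the other strand. FRMD8 and LTBP3 were thus close to siNC in siPRMT6-1, where NEAT1 and MALAT1 were higher.

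Farther away, DPF2, which encodes a chromatin remodelling subunit, had 35 counts in siPRMT6-1, 36 in siPRMT6-2 and 20 in siNC, with ratios of 1.82 (1.02 to 3.33) and 2.10 (1.19 to 3.84). SSSCA1-AS1 had 18, 14 and 3 counts in the same order, with ratios of 6.24 (1.82 to 33.1) and 5.46 (1.52 to 29.6). SSSCA1 beside it had 10, 9 and 5 counts. The kinase gene MAP3K11 had 58, 59 and 56 counts and EHBP1L1 25, 31 and 26. KCNK7 had 13, 8 and 6 counts and SLC25A45 4, 12 and 10. SSSCA1 and KCNK7 passed the filter on low counts through siPRMT6-1 alone, and SSSCA1-AS1 only through the knockdown libraries. SLC25A45 passed through siPRMT6-2 alone. None of these neighbours was called by edgeR.

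**Figure D4:**
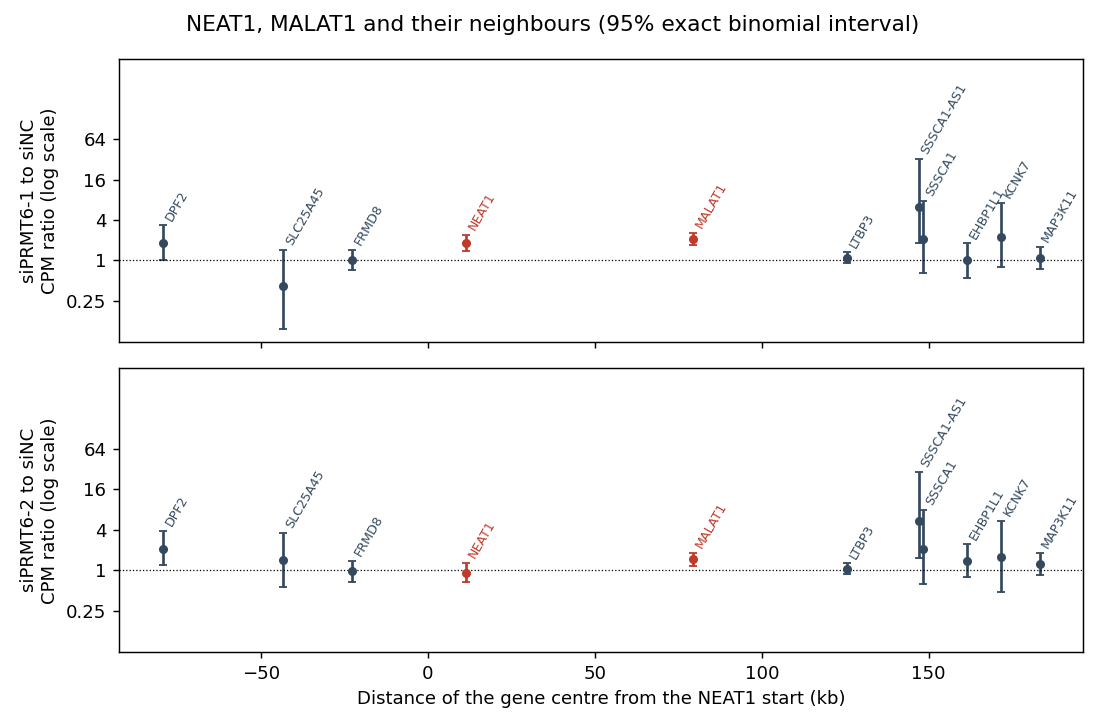
CPM ratio to siNC on a log scale for NEAT1 and MALAT1 (red) and 9 other genes within 100 kb with at least 20 counts (dark), by the distance of the gene centre from the NEAT1 start, with siPRMT6-1 above and siPRMT6-2 below and bars for the 95% exact binomial interval. With siPRMT6-1 NEAT1 stood at 1.82 and MALAT1 at 2.09, while FRMD8 stood at 1.01 and LTBP3 at 1.10.

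The promoters of MALAT1 and TUG1 are shown because windows were held for these RNAs. The windows run from 250 bases before to 50 bases after the start (RefSeq, GRCh38.p14, plus strand), at chr11:65497488-65497787 and chr22:30969015-30969314. Capitals mark matches to the GC box GGGCGG and the CCAAT box CCAAT on either strand.
MALAT1 promoter: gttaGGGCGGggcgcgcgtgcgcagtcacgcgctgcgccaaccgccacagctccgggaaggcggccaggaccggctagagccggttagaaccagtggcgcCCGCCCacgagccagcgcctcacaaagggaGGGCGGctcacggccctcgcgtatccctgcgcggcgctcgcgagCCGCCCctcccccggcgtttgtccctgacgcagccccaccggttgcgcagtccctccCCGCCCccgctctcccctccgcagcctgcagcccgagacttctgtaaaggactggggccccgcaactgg
TUG1 promoter: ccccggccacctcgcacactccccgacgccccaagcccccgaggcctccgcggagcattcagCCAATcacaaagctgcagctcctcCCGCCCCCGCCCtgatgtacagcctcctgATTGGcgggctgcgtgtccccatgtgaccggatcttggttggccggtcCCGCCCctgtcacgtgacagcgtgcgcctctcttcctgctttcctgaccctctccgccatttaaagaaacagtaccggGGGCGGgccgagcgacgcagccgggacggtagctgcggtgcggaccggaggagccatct

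The GC box had 5 matches in the MALAT1 window and 4 in the TUG1 window, and 15786 of all 35116 promoter windows hold at least 1. The CCAAT box had 2 matches in the TUG1 window and 0 in the MALAT1 window, and 34.6% of windows hold it. The windows were 73.7% G and C for MALAT1 and 67.7% for TUG1, against a median of 58.7%. A second RefSeq start of MALAT1, with its window at chr11:65498795-65499094, had the TATA box TATAAA 30 bases before the start, a motif found in 11.5% of windows.

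Next to TUG1, MORC2, a chromatin regulator gene whose start lies 713 bases away on the other strand, had 13 counts in siPRMT6-1, 15 in siPRMT6-2 and 7 in siNC. Its ratios to siNC were 1.93 (0.717 to 5.72) and 2.50 (0.961 to 7.26), nominally on the same side as TUG1 with both siRNAs. MORC2-AS1, which shares exon bases with MORC2, had 27, 26 and 30 counts. KCNQ1, the host gene of KCNQ1OT1 and a potassium channel gene, had 5, 0 and 3 counts, at or under the floor of 3 counts in siPRMT6-2 and siNC.

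Among 13 genes of the KCNQ1 imprinted domain, 5 were tested and edgeR called 0. CD81, a tetraspanin gene, had 102 counts in siPRMT6-1, 91 in siPRMT6-2 and 88 in siNC, and SLC22A18AS had 20, 18 and 18. PHLDA2, an imprinted growth regulator gene, had 12, 8 and 15 counts and SLC22A18 9, 15 and 10. CD81, SLC22A18AS and SLC22A18 overlap exons of a gene on the other strand. The cell cycle inhibitor gene CDKN1C, a known target of KCNQ1OT1, had 4, 1 and 2 counts, too few to compare. The medians over the 5 genes were 0.19 and 0.20 on the log2 scale with siPRMT6-1 and siPRMT6-2.

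Genes of the paraspeckle proteins, the partners of NEAT1, had a median below that of all genes tested with siPRMT6-1, though edgeR called 0 of the 15 tested. Their median log2 ratio was −0.21 with siPRMT6-1 and −0.02 with siPRMT6-2, against 0.01 for all genes tested. With siPRMT6-1, 1 was at a ratio of 1.5 or more and 5 were as far below siNC, against 14.7% and 13.9% of all genes tested. With siPRMT6-2 these were 0 and 1, against 17.9% and 15.4%. Among the 5, the intervals of NONO (0.367 to 1.12), HNRNPH3 (0.238 to 1.32) and TAF15 (0.227 to 1.24) held 1. SFPQ, a core paraspeckle protein gene, had 93 counts in siPRMT6-1, 63 in siPRMT6-2 and 77 in siNC. SMARCA4 had 60, 63 and 79 counts, EWSR1 55, 48 and 45, and HNRNPK 47, 44 and 57.

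NUDT21 and CPSF7, singled out after their values were seen, encode parts of the cleavage factor whose activity favours the short form of NEAT1. NUDT21 had 23 counts in siPRMT6-1, 35 in siPRMT6-2 and 60 in siNC, with ratios of 0.399 (0.235 to 0.655) and 0.682 (0.436 to 1.05). CPSF7 had 29, 48 and 62 counts, with ratios of 0.487 (0.302 to 0.768) and 0.905 (0.608 to 1.34). Their partner CPSF6 had 32, 32 and 38 counts, with ratios of 0.876 (0.53 to 1.44) and 0.984 (0.595 to 1.62). A relation of these genes to the NEAT1 level was not tested.

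Genes of nuclear speckle proteins, among which MALAT1 resides, had medians close to that of all genes tested. Of 13 tested, edgeR called 0, and the median log2 ratio was −0.01 with siPRMT6-1 and 0.00 with siPRMT6-2. SRRM2, a speckle scaffold gene, had 448 counts in siPRMT6-1, 439 in siPRMT6-2 and 513 in siNC. PRPF8 had 189, 107 and 169 counts, SRSF2 had 166, 119 and 174, and ACIN1 had 108, 89 and 92. SRRM2, SRSF2 and ACIN1 overlap exons of a gene on the other strand.

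For the machinery that forms the 3′ ends shown above, 8 of 12 genes were tested and edgeR called 0. RPPH1, the RNA component of RNase P, had 2314 counts in siPRMT6-1, 3603 in siPRMT6-2 and 2076 in siNC. Its ratio to siNC was 1.16 with siPRMT6-1 (1.09 to 1.23) and 2.03 with siPRMT6-2 (1.92 to 2.14). A relation of RPPH1 to the levels of MALAT1 or NEAT1 was not tested. ELAC2, which encodes the RNase Z that trims the tRNA-like RNA, had 44, 36 and 35 counts. METTL16, whose protein binds the MALAT1 triple helix, had 22, 16 and 16, and RPP38 had 12, 14 and 15. The medians over the 8 genes were 0.19 and 0.16.

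Repressive chromatin regulators, some of which bind KCNQ1OT1 or TUG1, had medians of 0.05 and −0.14 over 7 tested of 10 genes, and edgeR called 0. DNMT1, the maintenance DNA methyltransferase gene, had 75 counts in siPRMT6-1, 73 in siPRMT6-2 and 70 in siNC. RBBP4 had 63, 55 and 71 counts. EHMT2, the gene of the histone methyltransferase G9a, had 11, 20 and 34 counts, a ratio of 0.337 with siPRMT6-1 (0.154 to 0.681) and 0.688 with siPRMT6-2 (0.375 to 1.23). The model of EHMT2 also includes alternate sequences of the assembly, so its counts are uncertain.

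Other long noncoding RNAs of a fixed list were mostly near the limit of detection, with 6 of 20 tested and 0 called by edgeR. NORAD, listed as LINC00657, had 39 counts in siPRMT6-1, 31 in siPRMT6-2 and 24 in siNC, with ratios of 1.69 (0.992 to 2.94) and 1.51 (0.858 to 2.69). LINC-PINT had 14, 16 and 5 counts, with ratios of 2.91 (0.992 to 10.3) and 3.74 (1.31 to 13.1). ZFAS1 had 31, 36 and 34 counts and DANCR 22, 5 and 17. The medians over the 6 RNAs were 0.55 with siPRMT6-1 and 0.42 with siPRMT6-2, against 0.01 and 0.01 over all genes tested. OIP5-AS1 (10, 1 and 4 counts), SNHG12 (4, 15 and 7) and LINC-PINT passed the filter on low counts only through knockdown libraries. The medians therefore carry no test.

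MALAT1, NEAT1 and KCNQ1OT1 are long single-exon genes, so others of that form were set beside them. Among 48 other genes with 1 exon of at least 3 kb and at least 30 counts, the median log2 ratio was −0.01 with siPRMT6-1 and −0.11 with siPRMT6-2. With siPRMT6-1, 3 were at a ratio of 1.5 or more and 8 were as far below siNC, against 14.7% and 13.9% of all genes tested. With siPRMT6-2, 9 were at a ratio of 1.5 or more and 9 as far below siNC, against 17.9% and 15.4% of all genes tested. All genes tested include some with fewer than 30 counts, so these shares come from unlike depths. Among protein-coding genes, the share at 1.5 or more with siPRMT6-1 was 14.5% over all tested and 4.98% with at least 100 counts. Of the 48 genes edgeR called 0. The best counted were SLC25A5-AS1 with 1328 counts in siPRMT6-1, 1143 in siPRMT6-2 and 1615 in siNC, LOC100129034 with 550, 282 and 541, LOC100126784 with 78, 250 and 101, C6orf120 with 81, 95 and 151, and NFYC-AS1 with 78, 79 and 89. All 5 overlap exons of a gene on the other strand.

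**Figure D5:**
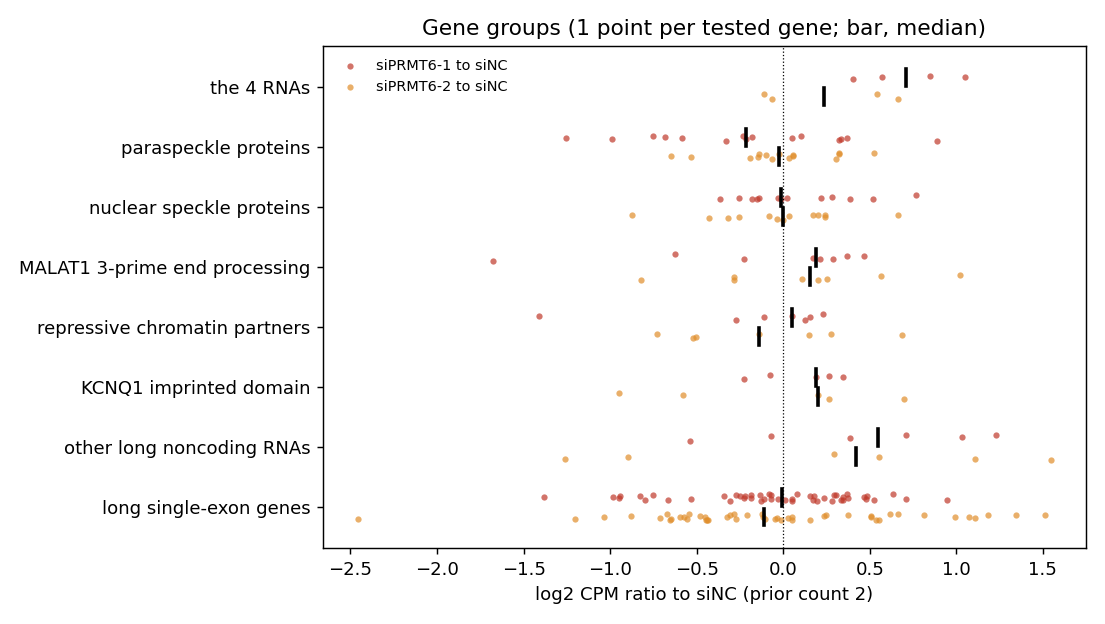
log2 CPM ratio to siNC (prior count 2) of each tested gene in 8 groups, with siPRMT6-1 in the upper and siPRMT6-2 in the lower row of each group and a black bar at the median. The 4 RNAs, chosen with their ratios known, had medians of 0.71 and 0.24. Those of the paraspeckle protein genes were −0.21 and −0.02, and those of the long single-exon genes −0.01 and −0.11.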

How the data were processed

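Per the labels' protocols, total RNA went into stranded low-input libraries. The submitters' processing notes name STAR 2.7.8a, featureCounts 2.0.10 and the build hg38. Per the file headers, the counter was instead featureCounts 2.0.1, run on UCSC gene models by gene name, in paired mode, with strand setting 1 and with a read in overlapping genes added to each of them. Names in the header carry a UMI deduplication mark, with no account of the method. The deposited counts are whole numbers per gene and were not normalized by the authors. Columns were matched to libraries through the descriptions, which call the siRNAs si2 and si3. Exonic length came from the deposited table.

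Fits used edgeR 4.0.16 in R 4.3.3 with TMM and filterByExpr (minimum count 10, minimum total 15), the quasi-likelihood F-test, two-sided, and Benjamini-Hochberg adjustment at 0.05. The fit had 1 residual degree of freedom, the gap between the siRNAs, and the lone control was assumed to vary alike. Nothing in the labels names separate cultures, so the spread behind a p-value may be technical. The fitting code was tested on simulated data with large known changes, which says nothing of smaller ones. DESeq2 1.42.0 was an alternative. Intervals (95%, exact Poisson for a count, exact binomial for a ratio of 2 libraries) come from SciPy 1.17.1 and cover counting error only. The floor is 3 counts.

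The members and lists were chosen with earlier results of these data known. Named were the 4 RNAs, their opposite-strand partners, neighbours within 100 kb with at least 20 counts, the 4 best counted genes of each list, the 5 best counted long single-exon genes and the 3 genes most like each RNA. CDKN1C, MIR612, CPSF6, NUDT21 and CPSF7 were added after their values were seen. Some genes that this rule names are not reported here. Older symbols were matched through RefSeq. RefSeq promoter windows were held for 2 of the 4 RNAs.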

Additional observations from a re-analysis of the deposited data

How the results depend on the processing

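All 51 ratios of the 4 RNAs between single libraries that were recomputed under other settings stayed inside the counting interval of the value reported. The settings were plain total counts, DESeq2 size factors, no filter on low counts, leaving out genes that overlap exons on the other strand, and adding KCNQ1 to KCNQ1OT1. Apart from adding KCNQ1, each setting multiplied all ratios of a library pair by the same factor, between 0.966 and 1.07. These factors are small beside the counting intervals, so the 51 values are not separate checks. The ratio of siPRMT6-1 to siNC ranged from 2.06 to 2.16 for MALAT1 and 1.79 to 1.88 for NEAT1, and that of siPRMT6-2 to siNC from 1.41 to 1.46 and 0.893 to 0.925. No opposite-strand partner could be added for MALAT1, NEAT1 or TUG1, since the table gives them none. Over both siRNAs, leaving out each knockdown library in turn gave 1.46 to 2.09 for MALAT1, 0.925 to 1.82 for NEAT1, 0.95 to 1.37 for KCNQ1OT1 and 1.56 to 1.67 for TUG1, as values with no test. The value of NEAT1 without siPRMT6-1 was thus 0.925, on the other side of 1. The control library could not be left out.

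The edgeR quasi-likelihood test called 0 genes under each scaling, filter and gene set, and DESeq2 called 0. With the older dispersion estimate it called 32 genes and the edgeR likelihood ratio test called 31, all higher in knockdown. The cause was not tested. No paired analysis was possible because the control group holds 1 library. Depth limits KCNQ1OT1 and TUG1, with 50 and 55 counts over the 3 libraries.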

Other observations

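Among 52 tested genes of GENCODE long noncoding types with no exon bases in common with a gene on the other strand, the 4 RNAs included (KCNQ1OT1 despite its 121 shared bases), MALAT1 with 630 and NEAT1 with 322 counts over the 3 libraries were the best counted. The median was 38.0 counts. Next came PTOV1-AS1, with 52 counts in siPRMT6-1, 63 in siPRMT6-2 and 63 in siNC, FLJ13224 with 47, 52 and 62, and CIRBP-AS1 with 40, 35 and 39. These 3, which were named after their values were seen, had log2 ratios to siNC of −0.21, −0.33 and 0.09 with siPRMT6-1. The 48 genes other than the 4 RNAs had median log2 ratios of 0.41 with siPRMT6-1 and −0.13 with siPRMT6-2. A ratio of at least 1.5 was reached by 16 of them (33.3%) with siPRMT6-1, against 14.7% of all genes tested. With siPRMT6-2 it was reached by 6 (12.5%), against 17.9%. The filter kept a gene with about 10 counts in any 1 library. Some genes thus passed through siPRMT6-1 alone, such as LPP-AS1 (13, 5 and 5 counts) and PPP4R1-AS1 (12, 3 and 5). TAPT1-AS1 (2, 5 and 11) passed through siNC alone. The shares therefore depend in part on the filter and carry no test. Of the 3 genes with at least 100 counts, 0 reached a ratio of 1.5 with either siRNA. In siPRMT6-1, 4 of the 48 were at or above the log2 ratio of MALAT1 and 10 at or above that of NEAT1. Per kilobase MALAT1 ranked 3rd, behind CIRBP-AS1 and PTOV1-AS1, and NEAT1 37th.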
